A study of Mus musculus with 4 samples.

Results

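MEIS, PBX and PKNOX proteins are the HOX cofactors of the TALE homeobox class, and 8 of their genes were examined among the 23552 genes of the deposited FPKM table. The 8 genes were taken by the match of their Ensembl gene ID to the mouse symbols Meis1, Meis2, Meis3, Pbx2, Pbx3, Pbx4, Pknox1 and Pknox2. RNA-Seq covered c-Kit+ leukemic cells from the bone marrow of moribund C57BL/6 mice with MLL-AF9 induced AML. Control cells (control-eGFP overexpression, replicates 3 and 4) were compared with SUV-OE cells (Suv39h1-eGFP overexpression, replicates 2 and 3), with 2 libraries in each group. All 4 libraries carry the MLL-AF9 fusion and an eGFP vector, are labelled RNA-seq batch 2, and differ by label in the Suv39h1 transgene alone. According to the methods, the leukemia cells were transduced with lentivirus (the Suv39h1 plasmid has an MSCV-IRES-EGFP backbone), sorted for eGFP and given to sublethally irradiated recipients, so host blood cells can remain. The methods give C57BL/6J mice, female and 8 weeks old, while the age at collection, the number of founding clones and whether the libraries came from separate mice are not stated. P-values then measure only the spread between these libraries, which may be technical.

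HOX proteins bind DNA weakly and with little selectivity on their own, and TALE proteins bind beside them to raise both. PBX proteins contact the hexapeptide of many HOX proteins, while MEIS and PKNOX (PREP) proteins bind PBX through a shared N-terminal domain, and MEIS1 also binds HOXA9. In MLL-rearranged AML, Meis1 and the Hoxa genes are direct targets of the fusion protein, and MEIS1 and PBX3 are known to act with HOXA9 in leukemia maintenance. The class takes its name from a loop extension between the first and second helix of the homeodomain.

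The codons of that loop are in capitals within 63 bases of coding sequence, written 5′ to 3′ on the gene's strand from GENCODE M21 transcripts (mm10). Genes were picked for display because Pbx2 and Pbx3 parted in the data, because Meis1 was expressed and Meis2 hardly at all, and because Pknox1 stands for the third family.
Meis1: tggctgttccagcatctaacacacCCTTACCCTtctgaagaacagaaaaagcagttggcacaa
Meis2: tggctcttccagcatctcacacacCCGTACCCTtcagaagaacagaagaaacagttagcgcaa
Pbx2: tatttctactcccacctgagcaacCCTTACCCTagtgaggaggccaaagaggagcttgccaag
Pbx3: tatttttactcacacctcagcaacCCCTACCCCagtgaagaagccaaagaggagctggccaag
Pknox1: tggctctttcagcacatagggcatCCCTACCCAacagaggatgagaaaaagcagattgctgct
The Pbx2 stretch lies in 1 coding exon (chr17:34594631-34594693, plus strand), as does that of Pbx3 (chr2:34204804-34204866, minus strand). The stretch of Meis1 (chr11:18905724-18941679, minus strand) is split by an intron, as are those of Meis2 (chr2:115921707-116000151, minus strand) and Pknox1 (chr17:31599623-31602827, plus strand). Over the 189 bases that encode the homeodomain, Pbx2 and Pbx3 were identical at 155 bases, Meis1 and Meis2 at 159, and Pknox1 and Pknox2 at 146. Across families the match was lower, with 92 of 189 bases between Meis1 and Pbx3 and 124 between Meis1 and Pknox1.

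These likenesses bear on the measurement, because reads from near-identical copies can be assigned to the wrong gene. Within a family, the longest run of identical bases between any transcripts of a pair of genes was 32 bases, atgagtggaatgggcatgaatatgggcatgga, which Meis1 and Meis2 share. Pbx2 and Pbx3 shared at most 17 bases in a row. The longest run over all pairs was 42 bases of a GT repeat in Meis2 and Pknox2. Exons of other genes also overlap the members. The gene model Gm37818 shares 1029 of the 10532 exonic bases of Meis1 on the same strand, and the antisense gene Gm16140 shares 896. Gpsm3 shares 227 of the 3640 exonic bases of Pbx2 on the same strand. How reads in these overlaps were counted is not given in the sources used here.

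Of the 8 genes, 5 were expressed at a mean FPKM of at least 0.5 and were tested, and 3 were near the detection limit. FPKM is the number of reads scaled to the length of a gene's exons and to the size of the library, so levels of genes can be set side by side. In control, the order from high to low was Pbx3, Pbx2, Meis1, Pknox1, Pbx4, Meis3, Pknox2 and Meis2. In SUV-OE, Pbx2 stood first and Pbx3 second, and the rest of the order was as in control. The ranges of Pbx3 and Pbx2 overlapped in control, and those of Pbx3 and Meis1 overlapped in SUV-OE. The ranges of Pknox2 and Meis2 overlapped in both groups, and the other neighbours in the order did not overlap within a group. In summed FPKM, the 3 Pbx genes made up 66.9% and 68.7% of the 8 genes in control cells, 62.7% and 63.2% in SUV-OE cells. The sum of the 8 genes was 69.3 and 68.2 FPKM for control, 72.9 and 66.6 FPKM for SUV-OE, so the groups overlapped.

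**Figure D1:**
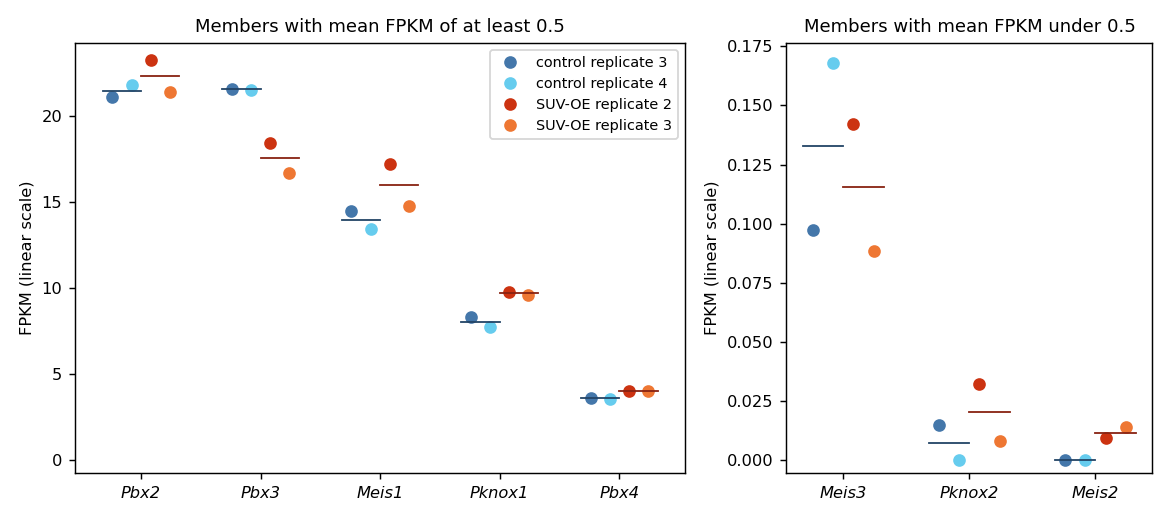
FPKM (linear scale) of the 8 genes in each of the 4 libraries, with points for libraries and horizontal lines for group means (n = 2 a group), on separate axes for the 5 tested genes and the 3 under a mean FPKM of 0.5. The SUV-OE points of Pbx3 (18.4 and 16.7) lie below both control points (21.6 and 21.5), while those of Pknox1 (9.76 and 9.63) lie above (8.32 and 7.72).

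Suv39h1 itself, the overexpressed gene, had 12.4 FPKM in both control libraries against 75.3 and 81.2 in the SUV-OE libraries, as labelled. Kit, whose product was used to enrich the cells, had 20.4 and 19.2 FPKM in control cells, 28.6 and 25.4 in SUV-OE cells. Over the 4 libraries, total reads recovered from the FPKM ranged from 20085720 to 23561091. All 12 listed markers of myeloid progenitors were expressed above the filter, with a summed FPKM of 5355 to 5971 in control and 3941 to 4743 in SUV-OE. The lower sum came mostly from the abundant granule gene Ctsg, at 2236 and 2787 FPKM in control cells, 1226 and 1353 FPKM in SUV-OE cells. Of the 12 myeloid markers, 7 were higher in SUV-OE and 5 lower (median 0.17 on the log2 scale). limma called 0 of them (1.22% of all tested genes) and limma-voom 0 (4.79%). An unadjusted limma p-value under 0.05 was found for 5 of the 12, against 20.7% of all tested genes. Markers listed for other cells also differed, in summed FPKM of the whole list. The 8 endothelial markers had 17.9 to 25.2 in control and 66.8 to 73.5 in SUV-OE, and 6 of them lay under the FPKM filter. Most of that sum was the single gene Pecam1, at 16.7 and 23.3 FPKM in control cells, 70.3 and 64.1 FPKM in SUV-OE cells. The 10 megakaryocyte markers had 8.27 to 14.9 in control and 26.9 to 31.1 in SUV-OE. The 12 B-lymphoid markers had 22.2 to 31.2 and 50.05 to 121, and the 7 measured markers of hematopoietic stem cells had at most 1.39 and 4.98 to 6.23. The 12 erythroid markers had 42.3 to 169 in control and 141 to 168 in SUV-OE, a sum that hemoglobin genes of control replicate 4 weigh on. Of these 12, 11 were higher in SUV-OE (median 0.79 on the log2 scale), and Car1, Car2 and Ermap were DEGs by limma (1.22% of all tested genes), while limma-voom called 5 (4.79% of all genes). Car1, a carbonic anhydrase of red cells, had 4.57 and 2.28 FPKM in control cells, 33.4 and 31.95 FPKM in SUV-OE cells (limma adjusted p = 0.0280), and with any 1 library left out limma called no gene. Of the 12 B-lymphoid markers 11 were higher, limma calling 0, with 10 at an unadjusted p-value under 0.05 (20.7% of all tested genes), and limma-voom calling 5. The summed FPKM of the 8 stromal markers was 8.90 to 9.63 and 7.07 to 10.3, and that of the 8 T and NK markers 0.731 to 1.13 and 1.69 to 2.38. Pecam1 was the 1 endothelial DEG by limma (log2 fold change 1.71, adjusted p = 0.0405). limma-voom called 5 of 9 megakaryocyte markers and 2 of 3 stem cell markers that it tested, all higher in SUV-OE, where limma called 0 of 5, with 3 at an unadjusted p-value under 0.05, and 1 of 2. No listed marker read 0 in both SUV-OE libraries, and Cd8a and Ncr1 did so in both control libraries. The part of other cells in the values of the 8 genes was not tested, and in bulk RNA fewer cells of a type and less RNA per cell cannot be told apart.

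None of the 5 tested cofactor genes was a DEG, that is, passed both a limma adjusted p-value of 0.05 and a log2 fold change of 1 in size, where 168 of all 13736 tested genes (1.22%) did, 0.815% higher and 0.408% lower in SUV-OE. A count of 0 among 5 genes is near that background and so no result about the genes. At an unadjusted p-value under 0.05 the count was 0 of 5 by limma, against 20.7% of all tested genes, and limma-voom on reads recovered from the FPKM also called 0 of 5, against 4.79%. Fold changes are on the log2(FPKM + 1) scale, which understates changes of low genes. The log2 fold changes of the 5 genes ran from -0.28 to 0.25 with a median of 0.12, beside a median of -0.02 over all tested genes. The 95% interval of the fold change lay between -1 and 1 in 5 of 5 genes, as in 79.6% of all tested genes. The groups did not overlap in 4 of the 5 genes, against 53.9% of all tested genes. SUV-OE was the higher group in 3 of them, Meis1, Pbx4 and Pknox1 (25.4% of all tested genes), and the lower group in Pbx3 (28.4%).

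Meis1 (ENSMUSG00000020160, chr11:18879817-19018985, minus strand, mm10) encodes the MEIS protein best known from AML, where it speeds leukemia driven by HOXA9. Control libraries had 14.5 and 13.5 FPKM and SUV-OE libraries 17.2 and 14.8 FPKM, from 2973, 2391, 3218 and 2763 reads. The groups did not overlap, but the lower SUV-OE library lay close to the higher control library. The mean was 14.0 ± 0.747 in control and 15.99 ± 1.74 in SUV-OE (SD, n = 2), and the log2 fold change was 0.18 (standard error 0.13, 95% interval -0.15 to 0.51, limma adjusted p = 0.484). On the log2 scale, the SUV-OE libraries differed from each other by 0.21, more than the group means did. The log2 fold change was 0.07 without SUV-OE replicate 2 and 0.28 without SUV-OE replicate 3.

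Meis2 and Meis3, the other MEIS genes, were close to silent in these cells. Meis2 (chr2:115863064-116065839, minus strand) is listed at 0 in both control libraries and had 2 and 3 reads in SUV-OE, an FPKM of 0.00936 and 0.0140. A count of 0 allows up to 3 reads, an FPKM of 0.0128 and 0.0148 for this gene in the control libraries, so no difference was detectable at this depth. Meis3 (chr7:16175090-16186504, plus strand) had 6 and 9 control reads, 8 and 5 SUV-OE reads, an FPKM of 0.0972, 0.168, 0.142 and 0.0886. The summed reads of Meis3 were 15 in control (95% exact Poisson interval 8.40 to 24.7) and 13 in SUV-OE (6.92 to 22.2), and the libraries overlapped. These intervals and limits cover counting error only.

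Pbx3 (ENSMUSG00000038718, chr2:34171457-34373142, minus strand) encodes the PBX partner most often tied to HOXA9 in MLL-rearranged AML. Control libraries had 21.6 and 21.5 FPKM and SUV-OE libraries 18.4 and 16.7 FPKM, from 2566, 2219, 1998 and 1811 reads. Both SUV-OE libraries lay below the control libraries, which almost coincided. The mean was 21.6 ± 0.0465 in control and 17.6 ± 1.24 in SUV-OE (SD, n = 2), which is 0.814 of control. The log2 fold change was -0.28 (standard error 0.11, 95% interval -0.58 to 0.01, limma adjusted p = 0.252). The difference did not pass the test over all genes.

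Pbx2 (ENSMUSG00000034673, chr17:34591266-34597400, plus strand), a widely expressed PBX gene, had 21.1 and 21.8 FPKM in control cells, 23.3 and 21.4 FPKM in SUV-OE cells. SUV-OE replicate 3 fell between the control libraries, so the groups overlapped. The log2 fold change was 0.06 (standard error 0.11, 95% interval -0.23 to 0.35, limma adjusted p = 0.808), and it was 0.03 without control replicate 3, -0.0034 without SUV-OE replicate 2, 0.11 without SUV-OE replicate 3 and 0.16 after quantile normalization. Pbx4 (ENSMUSG00000031860, chr8:69832491-69872292, plus strand), known mainly from testis, was the lowest of the tested genes, at 3.64 and 3.58 FPKM in control cells, 4.02 and 4.03 FPKM in SUV-OE cells. Its groups did not overlap, but the values came from only 157, 134, 158 and 159 reads. The log2 fold change of Pbx4 was 0.12 (standard error 0.12, 95% interval -0.18 to 0.43, limma adjusted p = 0.593), and it was 0.04 after quantile normalization.

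Pknox1 (ENSMUSG00000006705, chr17:31564734-31607693, plus strand) encodes PREP1, which competes with MEIS proteins for PBX. Control libraries had 8.32 and 7.72 FPKM and SUV-OE libraries 9.76 and 9.63 FPKM, with both SUV-OE libraries above control. The mean was 8.02 ± 0.426 in control and 9.70 ± 0.0937 in SUV-OE (SD, n = 2), which is 1.21 times control. The log2 fold change was 0.25 (standard error 0.11, 95% interval -0.04 to 0.53, limma adjusted p = 0.296). Its FPKM came out as whole reads at 6892 exonic bases rather than at the 6933 of GENCODE M21, which gives 1116 and 898 control reads, 1194 and 1180 SUV-OE reads. That length was the nearer to the annotation of 2 that fit, so the read numbers are uncertain. Pknox2 (chr9:36890982-37147407, minus strand), which encodes PREP2, had 0.0148 and 0 FPKM in control cells, 0.0325 and 0.00810 FPKM in SUV-OE cells. The matching reads, at a length other than that of GENCODE M21, were 2 and 0 for control, 4 and 1 for SUV-OE, too few to compare.

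**Figure D2:**
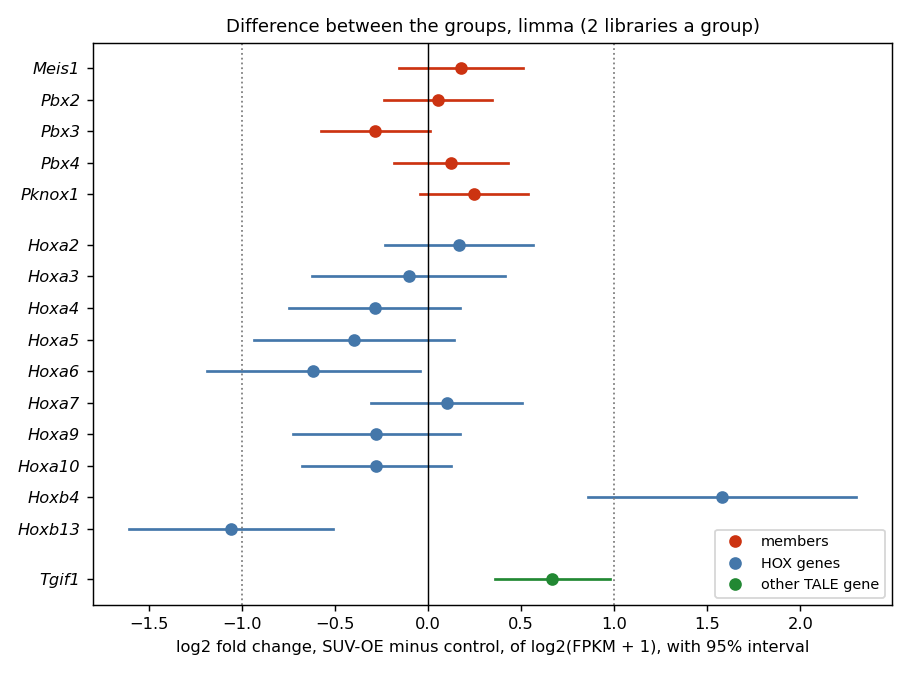
Log2 fold change of log2(FPKM + 1), SUV-OE minus control, with its 95% interval by limma, for the 5 tested cofactor genes, the 10 tested HOX genes and Tgif1; dotted lines mark 1 and -1. The cofactor genes lie between -0.28 and 0.25 with intervals that include 0, while Hoxb4 (1.58) and Hoxb13 (-1.06) stand apart.

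The ratio of 2 genes within a library does not depend on how the libraries were scaled. An exact permutation test of 2 libraries against 2 cannot reach a p-value under 0.05, and no other test was run on the ratios. Meis1 stood at 0.672 and 0.625 of Pbx3 in control cells, at 0.934 and 0.885 in SUV-OE cells, so these FPKM drew closer in both SUV-OE libraries. The groups differed by 0.49 on the log2 scale, while libraries of 1 group differed by at most 0.10. The other ratios among the 5 tested genes were added after their values were seen. Pbx2 stood at 0.977 and 1.01 of Pbx3 in control cells, at 1.26 and 1.28 in SUV-OE cells, a difference of 0.36 on the log2 scale. The ratio of Pbx3 to Pknox1 was 2.59 and 2.79 for control, 1.89 and 1.73 for SUV-OE, a difference of -0.57. Of the 10 ratios among the 5 genes, 7 did not overlap between the groups, including the 4 that involve Pbx3, which share its values. Among all 88717860 pairs of tested genes above 0 in every library, 54.3% did not overlap either, so non-overlap alone does not set these genes apart.

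**Figure D3:**
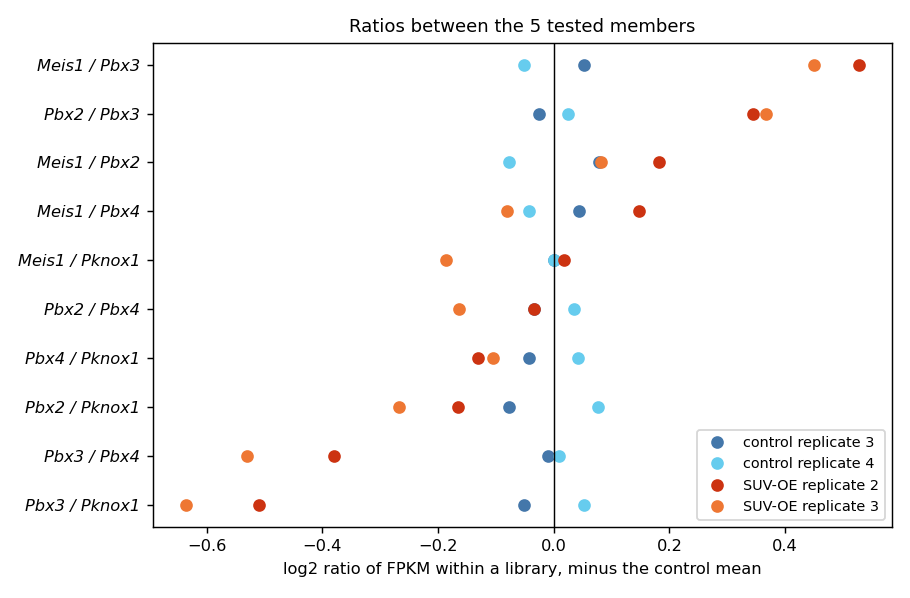
Log2 ratio of FPKM within a library for the 10 pairs among the 5 tested cofactor genes, minus the mean of the control libraries, 1 point a library. The 4 pairs with Pbx3 have their SUV-OE points farthest from 0, with differences of 0.36 to 0.57 in size, and the other 6 pairs differ by at most 0.22.

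HOX genes, whose proteins the cofactors bind, were measured in the same table. Of 23 HOX genes found there, 10 passed the filter, and 0 were DEGs by limma, against 1.22% of all tested genes, 3 having an unadjusted p-value under 0.05, against 20.7%. SUV-OE was lower in 7 of them and higher in 3, and the median difference was -0.28 (log2), beside 7278 lower and 6458 higher among all tested genes. limma-voom called 2 of the 10, Hoxb4, higher in SUV-OE, and Hoxb13, lower, against 4.79% of all genes it tested. Its log2 fold changes were 2.79 for Hoxb4 and -3.10 for Hoxb13, larger in size than the 1.58 and -1.06 on the log2(FPKM + 1) scale. Hoxb4 had 0.301 and 1.13 FPKM in control cells, 3.60 and 4.38 FPKM in SUV-OE cells. Hoxb13 had 1.77 and 1.07 FPKM in control cells, 0.179 and 0.127 FPKM in SUV-OE cells. Hoxa9 ranged from 43.0 to 57.3 FPKM in control and from 40.1 to 41.5 FPKM in SUV-OE, and was the HOX gene with the highest level. Meis1 stood at 0.253 and 0.313 of Hoxa9 in control cells, at 0.430 and 0.355 in SUV-OE cells, without overlap, but libraries of 1 group differed by up to 0.31 on the log2 scale against 0.47 between the groups. The ratio of Pbx3 to Hoxa9 was 0.377 and 0.501 for control, 0.460 and 0.401 for SUV-OE, so the groups overlapped and the log2 means differed by 0.02 in size.

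Of the other TALE genes, 6 were in the table and Tgif1, which encodes a corepressor that binds related sites, was the one that passed the FPKM filter. Tgif1 had 3.21 and 3.13 FPKM in control cells, 5.44 and 5.81 FPKM in SUV-OE cells (log2 fold change 0.67, standard error 0.12, limma adjusted p = 0.0844). It was no DEG by either tool, by limma-voom for its log2 fold change of 0.83 alone, since its adjusted p-value there was 0.0293. limma-voom also tested Tgif2 and Mkx, which lay under the FPKM filter, and called neither (adjusted p = 0.156 and 0.225). Among 13 genes of proteins that bind MEIS or PBX proteins, 12 were tested and 0 were DEGs by limma, 1 having an unadjusted p-value under 0.05, beside the same 1.22% and 20.7%. That gene was Pbxip1, which encodes a protein that keeps PBX off DNA, at 20.9 and 21.6 FPKM in control cells, 29.3 and 27.7 FPKM in SUV-OE cells (log2 fold change 0.41, standard error 0.11, limma adjusted p = 0.151). The partners with the highest levels were Myh9, Hdac1 and Ncor1, with log2 fold changes of 0.23, -0.28 and 0.14. limma-voom called 1 of 13, Myh10, which lay under the FPKM filter, against 4.79% of all genes.

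A list of 22 genes known as targets of MEIS1 or HOXA9, written from general knowledge, was examined in the same fit. Of the 19 that passed the filter, SUV-OE was higher in 15 and lower in 4 (median 0.26 on the log2 scale), beside 6458 higher and 7278 lower among all tested genes. The list was not split into genes that MEIS1 or HOXA9 activate or repress, so the counts give no direction of their activity. The paper's gene set analysis reported activated HOXA9 and MEIS1 targets as lower in SUV-OE, and suppressed targets as higher. Flt3, 1 of the 4 lower genes, had 10.3 and 9.08 FPKM in control cells, 6.20 and 4.18 FPKM in SUV-OE cells (limma adjusted p = 0.133). By limma, 1 of the 19 was a DEG, against 1.22% of all tested genes, and 10 had an unadjusted p-value under 0.05, against 20.7%. That gene was Hlf, a stem cell factor that was also on the stem cell marker list, which rose from 0.877 and 0.772 to 4.11 and 3.15 FPKM (log2 fold change 1.34, standard error 0.17, limma adjusted p = 0.0480). Hlf was not called with no filter on low values, with a pseudocount of 0.1, after quantile normalization or with any 1 library left out. limma-voom called 5 of the 20 targets it tested, Bcl2, Ccnd1, Epas1, Gfi1b and Hlf, all higher in SUV-OE, against 4.79% of all genes. For Hlf it gave a log2 fold change of 2.12 (limma-voom adjusted p = 0.00561). Pf4, a platelet chemokine, stood on both the target and the megakaryocyte lists (log2 fold change 1.33, limma adjusted p = 0.232). The stem cell, megakaryocyte and erythroid markers given above were also higher in SUV-OE in part, and their share in the values of the targets was not tested. The targets with the highest levels were Lmo2, Myb and Cdk6, at log2 fold changes of 0.26, 0.06 and 0.47, and limma called none of these 3.

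**Figure D4:**
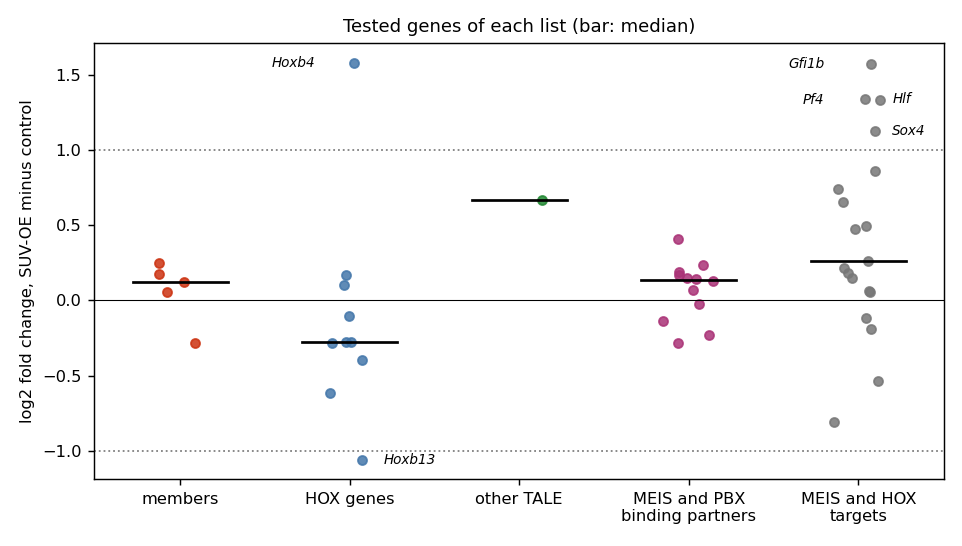
Log2 fold changes (SUV-OE minus control, log2(FPKM + 1) scale) of the tested genes in each list, 1 point a gene, with bars for medians, dotted lines at 1 and -1, and names beside genes beyond them. The 5 cofactor genes sit within 0.28 of 0, and the targets lie between -0.81 and 1.57.

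By the shape of the values over the 4 libraries, the gene nearest to each cofactor gene was sought among the 42 tested HOX, TALE, partner and target genes. The measure was the Euclidean distance of log2(FPKM + 1) after subtracting each gene's mean. Nearest to Meis1 was Hoxa2 (distance 0.0624), to Pknox1 Lmo2 (0.0861), to Pbx2 Myb (0.109), to Pbx4 Hoxa2 (0.112) and to Pbx3 Sytl1 (0.134). With 4 libraries such likeness is a description only.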

How the data were processed

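RNA-Seq of c-Kit+ leukemic cells was analysed in 2 control and 2 SUV-OE libraries. The authors prepared TruSeq RNA v2 libraries, aligned paired-end reads to mm10 with TopHat2 and deposited FPKM per gene, which the paper credits to Cufflinks. The submitters' processing notes also name CASAVA 1.8. The annotation release is not given in the sources used here.

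The members and gene lists were chosen with earlier results of these data known. An item of the target list is not reported here, and the list's counts leave it out. Genes whose mean FPKM reached 0.5 were compared as log2(FPKM + 1) with limma 3.58.1 (R 4.3.3), with an intensity trend, group as the only term and Benjamini-Hochberg adjustment over all tested genes. The thresholds for DEGs were the paper's, an adjusted p-value of 0.05 and a log2 fold change of 1 in size. DESeq2, which the authors used, was not run. The named genes were the 8 members, Suv39h1, Kit, DEGs of each list, its 3 genes with the highest mean FPKM (not all are printed) and the nearest genes. Hoxb4, Hoxb13, Myh10, Pbxip1, Cd8a, Bcl2, Ccnd1, Epas1, Gfi1b and Flt3 were named after their values were seen, and Gm37818, Gm16140 and Gpsm3 for their overlap with members.

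Symbols, positions and exon lengths came from GENCODE M21 (mm10). At these lengths, 78.5% of genes had FPKM that were whole reads in all libraries within 0.01. Rounded reads went into limma-voom, at a mean of at least 10 reads, and gave the depth and its counting error. The test was checked on simulated data with 200 changed genes. Their changes were set larger than those of the cofactor genes, so the check does not cover differences that small.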

Additional observations from a re-analysis of the deposited data

How the results depend on the processing

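No paired analysis was possible because just 1 replicate number occurs in both groups. Under 11 alternatives for each of the 5 tested cofactor genes, 54 of 55 fold changes kept their direction and none had an adjusted p-value under 0.05. The exception was Pbx2 without SUV-OE replicate 2 (log2 fold change -0.0034), and with 1 library left out Pbx2 ranged from -0.0034 to 0.11. The log2 fold change ranged from 0.07 to 0.28 for Meis1, from -0.0034 to 0.16 for Pbx2, from -0.35 to -0.19 for Pbx3, from 0.04 to 0.16 for Pbx4 and from 0.20 to 0.29 for Pknox1, with the lowest adjusted p-values 0.386, 0.519, 0.218, 0.477 and 0.216. The count of cofactor DEGs was 0 in every alternative that kept all 4 libraries. In these, Pbx3 was the only cofactor gene to pass an unadjusted limma p-value of 0.05. It passed with no filter on low values, as 1 of 8 cofactor genes beside 4177 of all 23552 genes. It also passed with median-of-ratios scaling of the libraries, as 1 of 5 beside 2865 of 13736. Such counts are near the background and so no result about the gene. Over all genes, against 168 DEGs by limma, there were 0 with no filter on low values (4177 at an unadjusted p-value under 0.05), 0 to 0 with 1 library left out (1166 to 3877 unadjusted), where the lone library is assumed to vary like the others, and 684 by limma-voom. By limma-voom, 2 HOX genes, 1 partner gene and 5 target genes were DEGs, against 0, 0 and 1 by limma. Target DEGs numbered 2 without the intensity trend, 0 with a pseudocount of 0.1, 0 after quantile normalization, 0 with no filter and 0 to 0 with 1 library left out. The cause was not tested. With 2 libraries a group, differences as small as those of Pbx3 and Pknox1 did not reach a limma adjusted p-value of 0.05. The 3 genes under the filter had at most 9 reads in a library.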
